A study of Rattus norvegicus with 458 samples.

Results

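Small RNA was sequenced from 23 tissues, all but the dorsal root ganglion taken from 10 untreated Sprague Dawley rats, an outbred strain. Of these rats 5 were male (rats 2 to 6) and 5 female (rats 7 to 11), aged 12 to 13 weeks and euthanized with carbon dioxide. The miRNAs described here are known from white blood cells: miR-142, miR-223, miR-150, miR-155 and miR-146a. A name of the deposited table was taken when one of the parts between its semicolons was one of these miRNAs, with any arm and without the ending that marks a hairpin fragment, and this gave 14 of 7534 names. The tissues were adrenal, brainstem, cerebellum, cerebrum, hippocampus, dorsal root ganglion, kidney, kidney cortex, kidney medulla, liver, heart, biceps femoris, soleus, pancreas, glandular and non-glandular stomach, duodenum, jejunum, ileum, ovary, uterus, testis and whole blood. Ovary and uterus came from the 5 females and testis from the 5 males, while the dorsal root ganglion RNA came from another laboratory and its 10 libraries are technical libraries of 2 pools, 1 of each sex, so that tissue entered no permutation test.

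Leukocytes carry a small set of miRNAs that most other cells hold at low levels, and every organ receives leukocytes with its blood and keeps resident ones as well. miR-142 is made in nearly all cells of the blood lineage, from stem cells to lymphocytes and macrophages, and both arms of its hairpin are used. miR-223 rises as granulocytes and monocytes mature, and miR-150 marks mature B, T and natural killer cells, in which it restrains the transcription factor Myb. miR-155, made from the transcript once called BIC, rises when lymphocytes and macrophages are activated, and miR-146a, induced by NF-kB, damps the same signalling by acting on IRAK1 and TRAF6. miR-451, miR-144 and miR-486 belong to red cells, and miR-486 is made by muscle too.

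The mature sequences are shown because their seeds, bases 2 to 8 from the 5′ end and given in capitals, decide which transcripts a miRNA can pair with, and because the 5′ ends counted in these tissues were often not the annotated ones. They were read from RefSeq for the rat build GRCr8. miR-142-3p lies on chromosome 10 at chr10:73055155-73055177 and miR-142-5p at chr10:73055119-73055139, both on the plus strand, miR-223-3p at chrX:65151450-65151470 on the plus strand, miR-155-5p at chr11:37261117-37261139 on the plus strand and miR-146a-5p at chr10:28350053-28350074 on the minus strand. miR-146b-5p, from chr1:255144874-255144897 on the plus strand, is printed beside miR-146a-5p because both have the seed GAGAACU; no other pair of the printed sequences shares a seed.
miR-142-5p: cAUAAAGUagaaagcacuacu
miR-142-3p: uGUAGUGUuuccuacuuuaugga
miR-223-3p: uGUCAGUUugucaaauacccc
miR-155-5p: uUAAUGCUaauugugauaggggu
miR-146a-5p: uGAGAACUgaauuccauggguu
miR-146b-5p: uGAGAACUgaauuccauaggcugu
The Mir142 hairpin, chr10:73055104-73055190 on the plus strand, has 87 bases and is printed with both annotated mature sequences in capitals, since the bases on either side of them are used below.
Mir142: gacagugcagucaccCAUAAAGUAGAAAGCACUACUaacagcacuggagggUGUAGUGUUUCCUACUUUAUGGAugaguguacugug

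Of the 207 tissue samples, 200 were used. The duodenum of rats 2, 4, 7 and 11 and the hippocampus of rats 2, 6 and 7 were left out beforehand. Their profiles were held to lie nearer to another tissue, and how near is not shown here. Totals ranged from 376401 to 17725805 counts with a median of 4853063, and the testis had the fewest, 376401 to 653651. The tissues carried their defining miRNAs. miR-122-5p was highest in liver, miR-124-3p in cerebellum, miR-208a-3p in heart and miR-206-3p in soleus. miR-1-3p and miR-133a-3p, also of skeletal muscle, were highest in biceps femoris. miR-216a-5p and miR-217-5p were highest in pancreas, miR-205 in non-glandular stomach and the red cell names in whole blood. Levels here are means in counts per 1000000 counts of the library (CPM). miR-205 was at 1074 CPM in non-glandular and 555 in glandular stomach. miR-216a-5p and miR-217-5p were at 5044 and 6246 CPM in pancreas and at 335 and 533 in duodenum. Whether tissue of neighbouring organs was mixed in was not tested. Adrenal of rat 8, ovary of rat 11 and uterus of rat 8 were likewise held to lie nearer to another tissue but were kept. Without these 3 samples the fit across tissues made the same 110 calls on the members. One lane of 1 flow cell, lane 8, holding 14 runs of 13 tissue samples and the male ganglion pool, gave reads that began 1 base upstream of the usual start in a large share of counts. In that lane 55.8% of placed miR-150-5p counts began 1 base upstream, against 0% in the other runs of the same libraries. The median log2 difference between the lane and the other run of the same library was -0.17 for miR-150-5p, which was higher in the lane in 1 of 14 libraries. It was 0.11 for miR-142-5p, higher in 11 libraries, and -0.54 for miR-155-5p, with libraries from -1.32 to 2.44. For the others it lay from -0.16 to 0.05. Without the lane the 110 calls were again the same. The 5′ ends are given with and without it.

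Together the 14 names held 1578405 counts, between 0.0151% and 0.423% of a library. The 6 names miR-150-5p (660435 counts), miR-142-5p (560841), miR-146a-5p (245405), miR-142-3p (51119), miR-223-3p (39251) and miR-155-5p (16691) took 99.7% of them. The opposite arms were rare, with 1855 counts for miR-223-5p, 1737 for miR-150-3p, 416 for miR-146a-3p and 99 for miR-155-3p. The remaining names are composites, given to reads that fit more than 1 hairpin: miR-146a-5p;miR-146b-5p had 279 counts, the composite of miR-223-3p with a predicted hairpin of chromosome 17 had 221, and those of miR-142-5p and miR-142-3p with a predicted hairpin of chromosome 10 had 50 and 6. Of the 14 names, 10 passed the filter on low counts for the fit across tissues; miR-155-3p, the composite of miR-146a-5p with miR-146b-5p and both chromosome 10 composites did not.

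The 6 miRNAs peaked in different organs. miR-142-3p and miR-142-5p were highest in liver and small intestine, miR-223-3p in uterus and liver, miR-150-5p in heart and brain, miR-155-5p in ovary, and miR-146a-5p in liver, dorsal root ganglion, kidney and heart. Levels are in counts per 1000000 counts of the library (CPM). In a bulk sample a lower level can mean fewer leukocytes or less of the miRNA in each of them. It can also mean less of the miRNA in cells other than leukocytes, and these readings cannot be told apart. Whole blood headed none of the 6 orders on this scale, and the red cell names took 80.9% to 91.4% of the counts of its libraries.

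**Figure D1:**
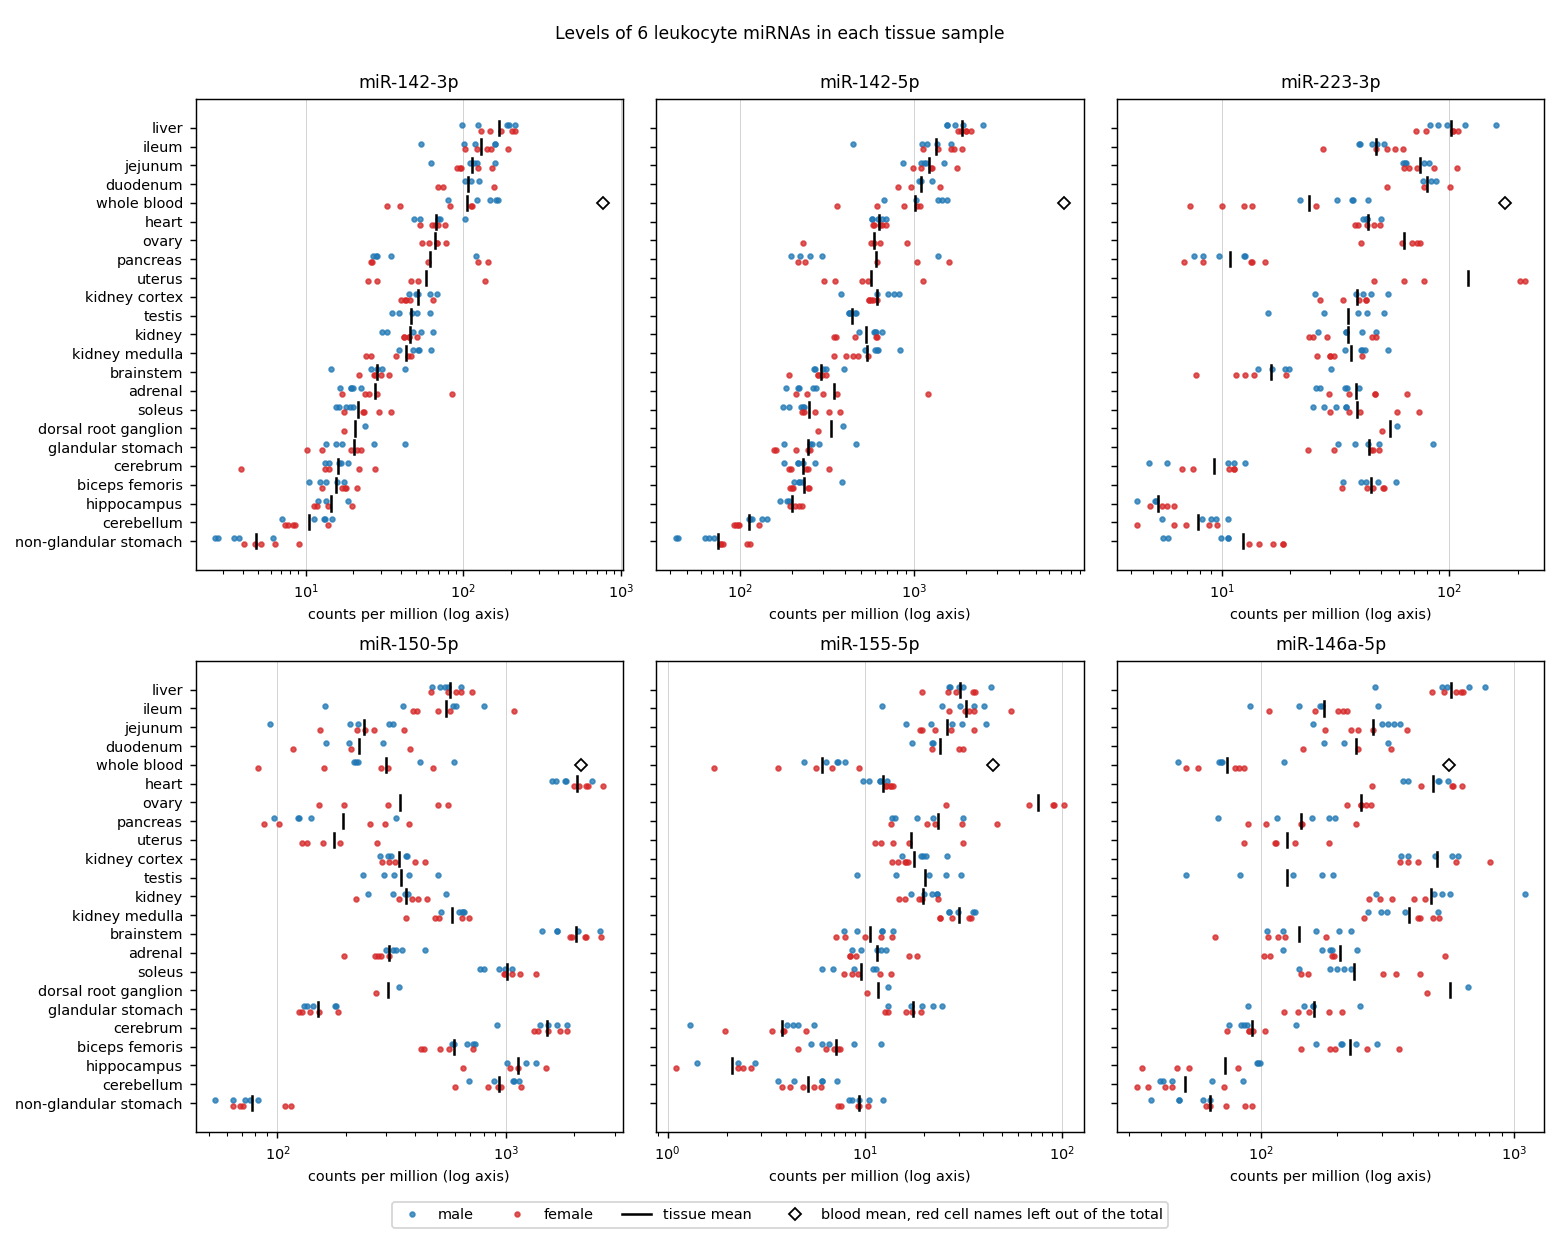
Levels of the 6 miRNAs in every tissue sample, in CPM on a log axis, 1 panel per miRNA, with tissues in the order of miR-142-3p. Blue and red points are male and female samples, black bars tissue means, and the open diamond is the blood mean when the red cell names are left out of the total; miR-150-5p is high in heart and the 4 brain regions, where the other 5 are low in brain.

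miR-142-3p had its highest mean in liver, 169 ± 41.0 CPM (SD, n = 10), with samples from 97.98 to 214 and a median of 180.5. Ileum followed at 130.2 ± 39.0, then jejunum at 113 ± 29.1, duodenum at 107 ± 32.7 (n = 6) and whole blood at 106 ± 46.9, the blood samples running from 33.0 to 166 with a median of 113. The lowest tissue was non-glandular stomach, at 4.84 ± 1.98 CPM, 34.8-fold below liver. miR-142-5p, from the same hairpin, kept nearly the same order: liver 1899 ± 278, ileum 1348 ± 414, jejunum 1215 ± 254, duodenum 1105 ± 215, whole blood 1008 ± 385 and, at the bottom, non-glandular stomach at 74.7 ± 23.5 CPM. Most steps in these orders were smaller than the spread between rats. Over the 6 miRNAs, 7 of 120 tests between neighbouring tissues passed (permutation tests on log2(CPM + 1), Benjamini-Hochberg adjusted). Neighbouring tissues were not compared for other names, so this count cannot be called particular to the members. For miR-142-5p liver stood above ileum (difference 0.57 log2, adjusted p = 0.0312 by permutation test), and both miR-142 names were lower in non-glandular stomach than in cerebellum, the next tissue up. When rats were kept as blocks, by sign flips within rats, 0 of the tests passed. Sign flips over at most 10 rats have a smallest possible p, which after adjustment passes only if several pairs reach it together. This 0 therefore says little about the steps. The order itself came from the same values that were tested.

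The pancreas was split between rats for miR-142. By rat, pancreatic miR-142-5p was 1378 CPM in rat 2, 1045 in rat 8, 1588 in rat 10 and 615 in rat 11, whereas rats 3, 4, 5, 6, 7 and 9 lay between 196 and 297. miR-150-5p was likewise 329, 297, 379 and 256 CPM in rats 2, 8, 10 and 11 against 87.7 to 140 in the other 6 rats. miR-223-3p did not share this split, at 6.80 to 15.5 CPM over all 10 rats, with 6.80 in rat 11. The RIN was 6.7, 5.6, 4.9 and 6.3 in rats 2, 8, 10 and 11 and 5.9 to 6.8 in the others, and the acinar cell miRNA miR-216a-5p was at 3654, 6080, 5050 and 4481 CPM against 4144 to 6937, so that the ranges overlapped for both. The hepatocyte miRNA miR-122-5p moved in part with the split, at 17.2, 16.6, 5.73 and 19.1 CPM in rats 2, 8, 10 and 11 against 0 to 7.12 in the others, and its part in the split was not tested. miR-451-5p of red cells was at 77.9 to 131 CPM in these 4 rats and 59.2 to 161 in the others.

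miR-223-3p was highest in uterus, at 121 ± 81.5 CPM (n = 5). The uteri differed more than 4-fold among themselves: 46.5 in rat 10, 63.4 in rat 8, 77.1 in rat 11, 204 in rat 7 and 215 in rat 9. Liver had 101 ± 25.4, duodenum 79.7 ± 15.7, jejunum 74.5 ± 14.3 and ovary 63.5 ± 13.4 CPM. Whole blood, the source of circulating granulocytes, stood only 17th of 23 at 24.2 ± 13.1 CPM, and the lowest tissue was hippocampus at 5.25 ± 0.634 (n = 7). The uterus of rat 8 held 481 CPM of miR-216a-5p, a pancreas miRNA that was at 1.58 CPM or less in the other 4 uteri, and it also had the highest uterine miR-142-5p, 1124 against 306 to 548 CPM; its miR-223-3p was neither the highest nor the lowest. In 20 tests between neighbours for miR-223-3p no step passed.

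miR-150-5p had an order of its own. Heart samples lay between 1598 and 2676 CPM (median 2042, mean 2060 ± 345) and brainstem samples between 1444 and 2604 (median 2008, mean 2041 ± 386), so these organs covered the same range. Cerebrum had 1523 ± 282, hippocampus 1133 ± 273, soleus 1012 ± 169 and cerebellum 937 ± 192 CPM. Biceps femoris was at 597 ± 114, liver at 572 ± 76.0, whole blood at 299 ± 157 and non-glandular stomach, the lowest, at 77.2 ± 19.4. The slow soleus and the fast biceps femoris did not overlap, the lowest soleus sample being at 771 CPM and the highest biceps sample at 732. Among neighbours, brainstem exceeded cerebrum (0.42 log2, adjusted p = 0.0482), cerebellum exceeded biceps femoris (0.65, adjusted p = 0.0096) and glandular stomach exceeded non-glandular stomach (0.97, adjusted p = 0.0024) by permutation test.

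miR-155-5p had its highest mean in the ovary, with 25.9, 68.3, 90.1, 91.4 and 103 CPM in rats 11, 10, 9, 8 and 7 (mean 75.7 ± 30.6). Rat 11 gave the lowest value and its ovary library is the one held to lie nearer to another tissue. The next tissues were ileum at 32.9 ± 11.2, liver at 30.7 ± 6.72 and kidney medulla at 30 ± 4.74, and the step from ovary to ileum did not pass (difference 1.12 log2, adjusted p = 0.0755 by exact permutation test). Whole blood was at 6.10 ± 2.22 and hippocampus at 2.13 ± 0.631 CPM. miR-146a-5p spanned the narrowest range, 11.3-fold from liver, 563 ± 130 CPM, to cerebellum, 49.8 ± 17.3. The ganglion pools had 455 and 660, kidney cortex 495 ± 145.9, heart 477 ± 111, kidney 470 ± 247 and whole blood 72.9 ± 21.9 CPM, and no step between neighbours passed for miR-155-5p or miR-146a-5p.

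A large share of the blood total is red cell RNA, so blood was also read without it. With the red cell names taken out of every library's total, blood rose from 106 to 772 ± 290 CPM for miR-142-3p, from 1008 to 7287 ± 1722 for miR-142-5p and from 24.2 to 176 ± 80.5 for miR-223-3p, and became the highest of the 23 tissues for these 3 names. It became the second for miR-150-5p (2131 ± 790) and miR-155-5p (44.6 ± 12.8) and the third for miR-146a-5p (556 ± 171). In the other tissues the red cell names took at most 9.4% of the counts, in heart, and the means moved little.

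In the fit across all tissues (edgeR's quasi-likelihood test, upper quartile scaling), each tissue was set against the mean of the other 22. The ganglion, as 2 pools of technical libraries, was among the tissues tested, and its calls do not measure a spread between rats. Over the 6 members, 62 of 138 such tests were higher and 48 lower, a share of 79.7% against 37.4% over all 1593 names tested, where 24.4% of tests were higher and 13% lower. Whole blood was higher for all 6, where 38.4% of all names were called higher: by 4.60 log2 (SE 0.149, adjusted p = 6.5e-73) for miR-142-3p, 4.27 (SE 0.136) for miR-142-5p, 2.59 (SE 0.14) for miR-223-3p, 2.39 (SE 0.13) for miR-150-5p, 1.80 (SE 0.145) for miR-155-5p and 1.55 (SE 0.171, adjusted p = 1.14e-15) for miR-146a-5p. The rare arms miR-223-5p and miR-150-3p were higher in blood by 5.22 (SE 0.2) and 5.42 (SE 0.212). Blood was the tissue of the largest difference for miR-142-3p and miR-142-5p, heart for miR-150-5p (2.75), uterus for miR-223-3p (3.12), ovary for miR-155-5p (2.07) and liver for miR-146a-5p (1.97); in these 4 last tissues 30.9%, 17.8%, 21.8% and 31.8% of all names were called higher.

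These sizes rest on the scaling. The median over all names of the blood difference was 0.40 under upper quartile scaling, 0.54 with DESeq2 and -0.77 with TMM, and the members lay above that median under all 3. With TMM the difference was 2.95 for miR-142-3p, 2.63 for miR-142-5p, 0.95 for miR-223-3p and 0.79 for miR-150-5p, but miR-155-5p (0.17, adjusted p = 0.466) and miR-146a-5p (-0.11, adjusted p = 0.863) were no longer called. Only the 4 former names were therefore called higher in blood under all 3 scalings of the fit. Of all names, 246 of 1593 were called higher in blood with TMM and 344 of 1521 with DESeq2. In CPM, where red cell names take most of the blood total, blood ranked 17th of 23 for miR-223-3p and miR-150-5p.

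The other tissues sorted the miRNAs further. Both miR-142 names were higher in kidney cortex, kidney, kidney medulla, duodenum, jejunum, ileum, liver, heart, pancreas, uterus and blood and lower in 10 tissues, among them both skeletal muscles and the 4 brain regions. miR-223-3p was higher in 11 tissues and lower in 6; it differed from miR-142 in biceps femoris, where miR-223-3p was higher (0.45, SE 0.171) and miR-142-3p lower (-1.40, SE 0.23), and in pancreas, where miR-223-3p was lower (-1.50, SE 0.21) and miR-142-3p higher (0.78, SE 0.185). Of all names, 20.5% were higher and 14.4% lower in biceps femoris, and 29.9% and 14.2% in pancreas. miR-150-5p was higher in 7 tissues, heart, soleus, biceps femoris, kidney medulla, liver, ileum and blood, and lower in 8. miR-155-5p was higher in 13 tissues and lower in 9, and miR-146a-5p higher in 9 and lower in 5. Of the 110 calls, 96 were made with TMM and 94 with DESeq2. The calls rest on the scaling and did not always follow the CPM orders. For miR-142-3p testis was called lower at a mean of 46.7 CPM and kidney higher at 45.65. For miR-155-5p testis was called lower at 20.3 CPM and non-glandular stomach higher at 9.33.

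Leukocytes of the blood left in an organ would bring red cells with them, so each miRNA was set against miR-451-5p, a red cell miRNA, within the same library. In whole blood there were 0.0199 counts of miR-142-3p, 0.197 of miR-142-5p, 0.00439 of miR-223-3p, 0.0554 of miR-150-5p, 0.00121 of miR-155-5p and 0.0149 of miR-146a-5p per count of miR-451-5p (geometric means, n = 10). In the 21 tissues tested, and for all 6 miRNAs, the ratio was above that of blood: 126 of 126 permutation tests passed, with adjusted p from 2.62e-05, the smallest the resamples could give, to 0.000333. This was no mark of these miRNAs: the samples of a tissue all lay above all blood samples in 126 of 126 cases for the members and in 96.4% of 11193 cases for 533 other names that reached a mean of 10 CPM in some tissue, miR-451-5p itself being concentrated in blood. The members differed in the size of the excess, which was smallest in heart for miR-142-3p, at 5.00-fold, and for miR-142-5p, at 4.81-fold, and largest in ileum, at 610-fold and 631-fold. miR-155-5p went from 15.6-fold in heart to 2526-fold in ileum, miR-223-3p from 15.1-fold in heart to 1510-fold in jejunum, miR-146a-5p from 41.6-fold in cerebellum to 1617-fold in jejunum and miR-150-5p from 12.2-fold in liver to 868-fold in ileum. In the heart, where red cell names took 4.48% to 9.4% of counts, miR-150-5p was 55.5-fold above its ratio in blood. With rats as blocks 108 of 126 passed, the 18 others being those of ovary, testis and uterus, where 5 rats cannot give a two-sided exact p below 0.05. The share of miR-451-5p that an organ makes itself was not measured.

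**Figure D2:**
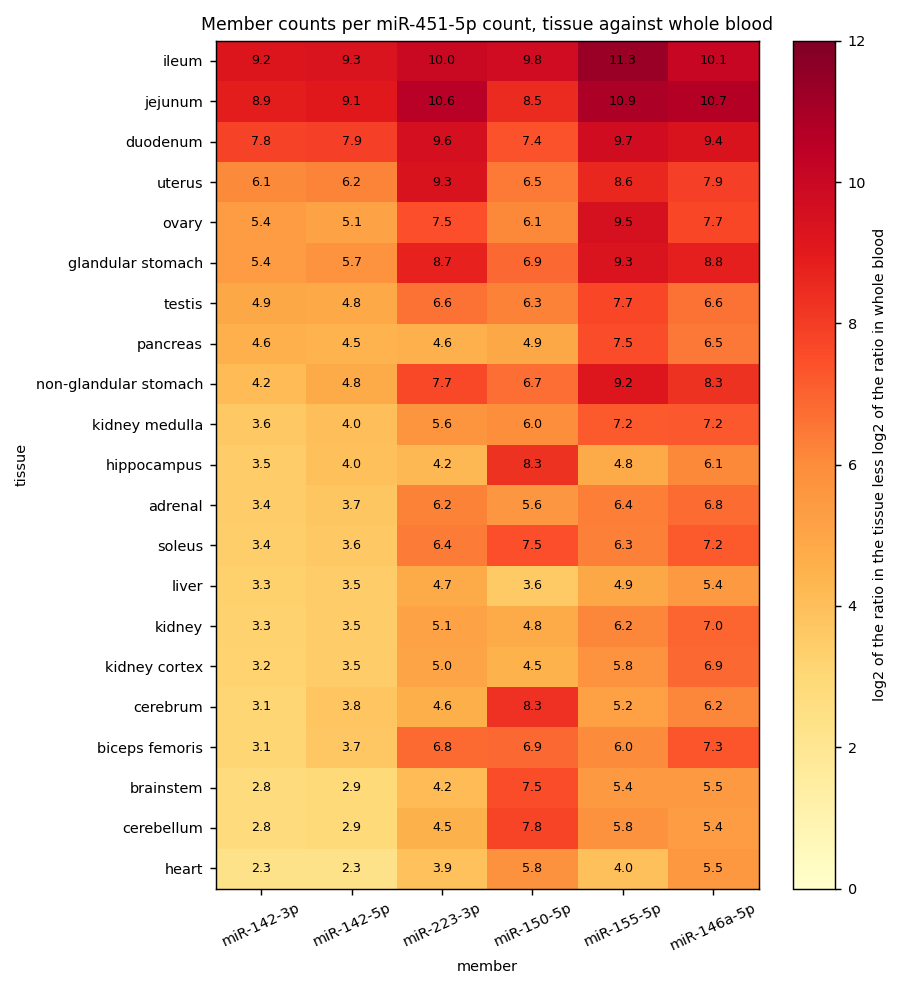
Counts of each miRNA per count of miR-451-5p in 21 tissues, as the log2 difference from the same ratio in whole blood (colour and printed value). All 126 cells are above 0 and passed the permutation test; the smallest values are those of miR-142 in heart and the largest those of the small intestine.

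The 5 other miRNAs were then set against miR-142-3p, the member with the largest blood difference. Per count of miR-142-3p, whole blood had 9.89 counts of miR-142-5p, 2.78 of miR-150-5p, 0.749 of miR-146a-5p, 0.221 of miR-223-3p and 0.0605 of miR-155-5p. Of 105 tests of a tissue against blood, 84 were higher and 0 were lower in permutation tests, also at an unadjusted p under 0.05. Here too the direction is not particular to them, since the samples of a tissue all lay above all blood samples in 62 of 105 cases (59%), against 62.3% of 11214 cases for 534 other names. What follows is therefore the size of each ratio by organ. miR-142-5p, the other arm of the hairpin, moved least, from 0.828-fold in ovary to 1.58-fold in cerebrum over the tissues tested. miR-150-5p per miR-142-3p was 36.8-fold above blood in cerebrum, 32.2-fold in cerebellum, 27.9-fold in hippocampus, 26.4-fold in brainstem, 17.1-fold in soleus, 13.7-fold in biceps femoris and 11.1-fold in heart. It was near blood in liver (1.25-fold, adjusted p = 0.197), pancreas (1.25-fold, adjusted p = 0.197), duodenum (0.744-fold, adjusted p = 0.176) and jejunum (0.742-fold, adjusted p = 0.0809) by permutation tests, which in duodenum (n = 6) were exact. With rats as blocks the values in duodenum and jejunum did pass as lower, the 2 lower calls of that test, and miR-142-5p was higher in 4 tissues in place of 7.

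The 3 other miRNAs stood furthest above their blood ratio in different organs. miR-223-3p did so in biceps femoris (13.1-fold), non-glandular stomach (11.4-fold), glandular stomach (10.2-fold) and uterus (9.58-fold), and in pancreas it equalled blood (0.999-fold, adjusted p = 0.997 by permutation test). miR-155-5p was 33.4-fold above blood in non-glandular stomach, 17.3-fold in ovary, 15.3-fold in glandular stomach and 11.8-fold in kidney medulla. miR-146a-5p was 18.9-fold above blood in biceps femoris and 17.6-fold in non-glandular stomach, and the ganglion pools, not tested, had 36.0-fold. In non-glandular stomach these folds come with the lowest miR-142-3p of all tissues. Its level was also low in glandular stomach (20.1 CPM), cerebrum (15.9), biceps femoris (15.6), hippocampus (14.4) and cerebellum (10.5). A high fold there need not mean a high level: miR-223-3p in biceps femoris was at 45.1 CPM, the 8th of the tissues.

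**Figure D3:**
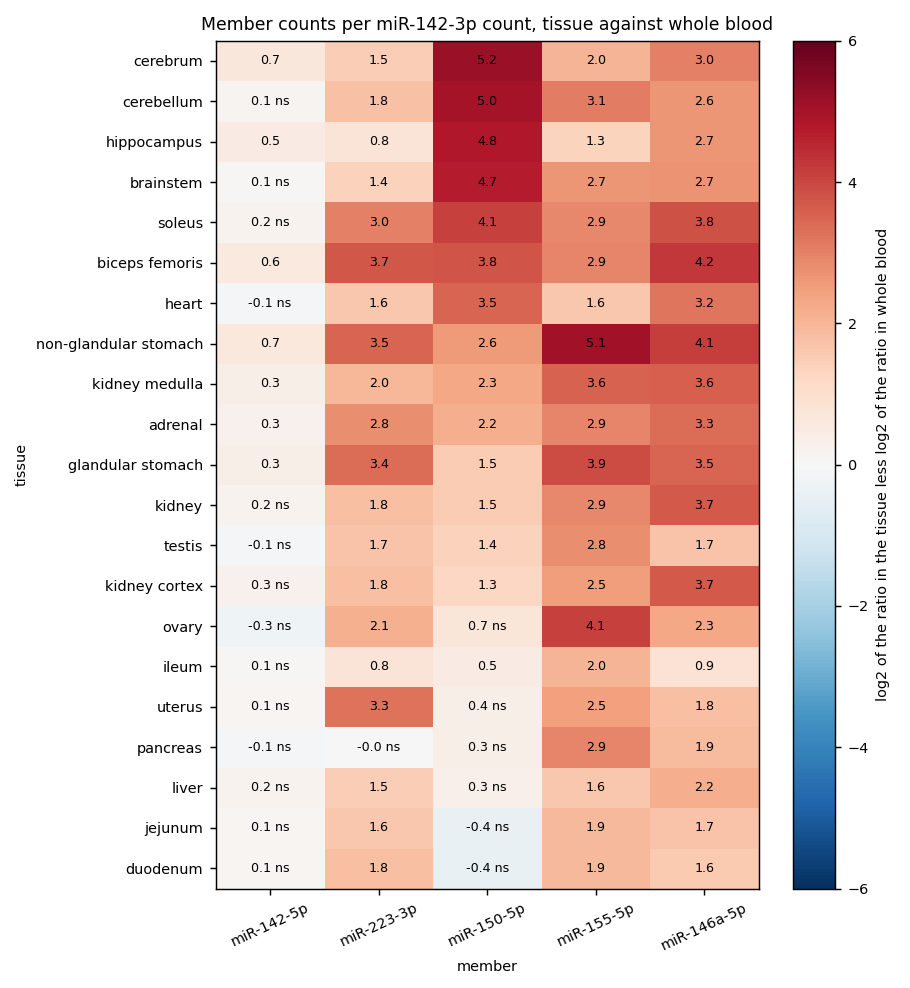
Counts of 5 miRNAs per count of miR-142-3p in 21 tissues, as the log2 difference from the same ratio in whole blood (colour and printed value; ns marks an adjusted p of 0.05 or more). miR-150-5p is highest in the 4 brain regions and the muscles, miR-155-5p in the stomachs and ovary, and miR-142-5p stays close to blood.

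Averaged over its 4 regions, the brain was low in the leukocyte miRNAs except miR-150, while brainstem alone, at 28.2 CPM of miR-142-3p, 292 of miR-142-5p and 142 of miR-146a-5p, ranked 14th, 16th and 16th of the 23 tissues. Against the mean of the non-neural tissues, the 4 brain regions were lower by edgeR's quasi-likelihood test for 5 of the 6 names, where 35.6% of all names were called lower: miR-223-3p by -4.24 log2 (SE 0.144), miR-155-5p by -3.96 (SE 0.13), miR-142-3p by -3.57 (SE 0.152), miR-142-5p by -3.43 (SE 0.139) and miR-146a-5p by -3.43 (SE 0.15). The median over all names was -0.98 under this scaling, -0.60 with TMM and -0.61 with DESeq2, and the 5 names stayed below it, at -2.70 to -3.51 with TMM. miR-150-5p differed by -0.06 (SE 0.0951, adjusted p = 0.793) here, by 0.65 with TMM and by 0.92 with DESeq2, the latter both called higher, so its direction in brain depends on the scaling, while it lay above the median of all names under all 3. Its less used arm, miR-150-3p, was lower by -0.86 (SE 0.187) than in the non-neural tissues.

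Along the small intestine, ileum, whose wall carries the Peyer's patches in number, was set against jejunum. miR-150-5p was 1.16 log2 higher in ileum (SE 0.231, adjusted p = 0.000107 by edgeR's quasi-likelihood test), where 3.95% of all names were called in either direction and 2.95% as higher, and its other arm miR-150-3p was higher by 1.53 (SE 0.425, adjusted p = 0.0138). Ileum samples of miR-150-5p ran from 162 to 1085 CPM (median 536) and jejunum samples from 92.4 to 359 (median 235), so the groups overlapped, and the lowest ileum was that of rat 2. miR-142-3p (0.14, adjusted p = 0.909), miR-142-5p (0.12, adjusted p = 0.932) and miR-155-5p (0.33, adjusted p = 0.564) were not called. miR-223-3p was at -0.73 (SE 0.247, adjusted p = 0.0732) and miR-146a-5p at -0.68 (SE 0.275, adjusted p = 0.184). With rats as blocks and the ganglion left out, both were called lower, miR-223-3p at -0.81 (adjusted p = 0.0151) and miR-146a-5p at -0.81 (adjusted p = 0.05); without the ganglion and without blocks miR-223-3p was at -0.81 (adjusted p = 0.0143).

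Between the sexes, 1 of 114 tests of the 6 members passed, where 1.02% of all names and tissues did: miR-223-3p in whole blood was lower in females by -1.41 log2 (SE 0.288, adjusted p = 0.000163, edgeR's quasi-likelihood test). In blood 8.46% of names were called in either direction and 5.85% as lower. The male values were 37.2, 22.03, 32.0, 43.7 and 37.6 CPM in rats 2 to 6 (mean 34.5 ± 8.11) and the female values 12.5, 26.0, 7.25, 13.6 and 10.02 CPM in rats 7 to 11 (mean 13.9 ± 7.21). The groups overlapped by 1 pair, since rat 8 was above rat 3; with the red cell names left out of the total, males lay at 197 to 283 and females at 81.7 to 183 CPM and did not overlap. The difference in blood exceeded the mean difference of the 18 other tissues by -1.42 (SE 0.296, adjusted p = 0.000253), where 5.93% of names did so. That fit takes the tissues of a rat as independent; with 1 difference per rat on the log2(CPM + 1) scale, the females were lower by -1.35 (exact permutation test, p = 0.0159, n = 5 and 5), and 4 of 5 females lay below every male. Leaving out 1 rat at a time gave -1.28 to -2.01, each called.

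The RNA integrity number (RIN) of the blood samples also separated the sexes, at 8 to 8.4 in males and 7.4 to 7.7 in females, so that sex and RNA quality cannot be told apart in this result. The share of red cell names was 85.7% ± 3.58 in males and 87.4% ± 2.58 in females. In blood miR-142-3p was at 136 ± 35.5 CPM in males and 76.1 ± 38.5 in females (-0.97 log2, adjusted p = 0.0796) and was called lower with TMM (-1.03, adjusted p = 0.0431) and without rat 6, 7 or 8. miR-142-5p was at 1216 ± 360 and 799 ± 307 CPM, miR-150-5p at 336 ± 169 and 262 ± 153, miR-155-5p at 6.76 ± 1.17 and 5.45 ± 2.94 and miR-146a-5p at 75.4 ± 28.4 and 70.5 ± 16, none of them called. Without rat 8, the female with the highest miR-223-3p, miR-142-3p (-1.37), miR-142-5p (-1.03), miR-150-5p (-0.90) and miR-155-5p (-0.93) were called lower as well, and with all 207 libraries in the fit miR-223-3p was not (-1.39, adjusted p = 0.19).

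Each hairpin gives a 5p and a 3p strand, and their shares were compared with blood in tissues where every library had 50 counts or more of the pair. For miR-223 the 5p strand, the rarer, took 23.5% ± 9.96 of counts in blood (12.5% to 40.8% over 10 rats), against 2.56% ± 0.992 in heart to 7.93% ± 0.0744 in the ganglion pools. All 14 tissues tested were lower than blood (adjusted p = 5.63e-05 to 0.00369 by permutation tests; 11 of 14 with rats as blocks), and the highest single sample outside blood, a kidney, had 9.43%. The blood shares rest on 71 counts of the pair or more (median 240.5). In blood, miR-223-5p itself was at 6.63 ± 1.4 CPM in males and 5.28 ± 0.393 in females (-0.58 log2, adjusted p = 0.564), so the 5p share was 16.8% ± 5.94 in males and 30.1% ± 8.87 in females.

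For miR-150 the 5p strand, here the main one, took 97.9% ± 0.838 in blood and 99.6% or more in the other tissues, all 21 tested being higher than blood (17 of 21 with rats as blocks). In blood both loci thus carried a larger share of their rarer strand. miR-142 did not follow: its 5p share was 90.7% ± 1.87 in blood and 88.3% to 94.2% elsewhere, with 7 of 21 tissues higher, namely adrenal, cerebrum, hippocampus, kidney medulla, biceps femoris and both parts of the stomach (3 with rats as blocks). For miR-146a the 5p strand took 99.98% ± 0.0625 in blood, and 13 of 20 tissues were lower by at most 0.42 percentage points (10 with rats as blocks). Over the 4 loci 28 of 76 tests were higher and 27 lower. For miR-155 the blood libraries had fewer counts than the minimum. Strand shares of other hairpins were not compared with blood, so these counts cannot be called particular to the members.

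**Figure D4:**
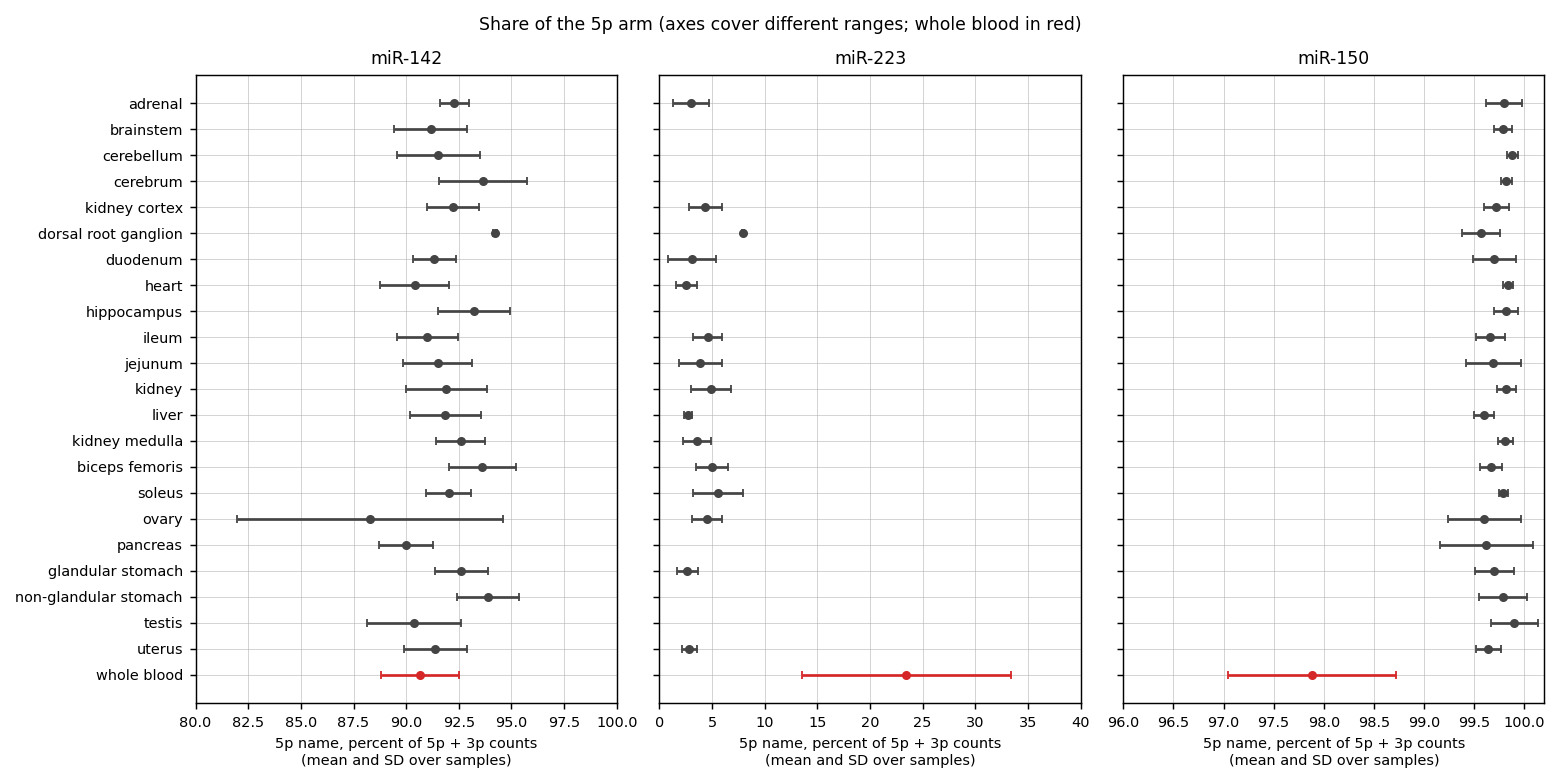
Share of the 5p strand in the 5p and 3p counts of miR-142, miR-223 and miR-150, in percent, as mean and SD over the samples of each tissue, with whole blood in red; the axes cover different ranges. The miR-223 share in blood is several times that of every other tissue and the miR-150 share in blood is the lowest.

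The 5′ end sets the seed, and for miR-142 most counts did not have the annotated one. Without the samples of lane 8, 63.2% of miR-142-5p counts began 2 bases upstream and 34.1% at the RefSeq end, while miR-142-3p began at the RefSeq end in 37.4%, 1 base downstream in 20.7% and 3 bases downstream in 36.6%. The commonest forms are printed as the isomiR table has them, with T for U and bases 2 to 8 in capitals, to show that the seeds differ; each can be read in the hairpin above.
miR-142-5p, 2 bases upstream: cCCATAAAgtagaaagcact
miR-142-5p, RefSeq end: cATAAAGTagaaagcactact
miR-142-3p, 3 bases downstream: aGTGTTTCctactttatggatg
miR-142-3p, RefSeq end: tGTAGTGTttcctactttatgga
miR-142-3p, 1 base downstream: gTAGTGTTtcctactttatgga
These forms took 38.6% and 27.6% of miR-142-5p counts and 32.8%, 21% and 8.75% of miR-142-3p counts. The other miRNAs mostly began at the reference end: 97.3% for miR-150-5p, whose reference is the start of its most counted isomiR in place of a RefSeq sequence, 97.3% for miR-155-5p, 94.6% for miR-223-3p and 82.9% for miR-146a-5p, the last with 15.4% at 1 base upstream.
miR-146a-5p, RefSeq end: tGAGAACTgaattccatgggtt
miR-146a-5p, 1 base upstream: cTGAGAACtgaattccatgggtt

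The mixture of ends varied by tissue. The form of miR-142-5p that begins 2 bases upstream took 75.6% ± 2.9 of placed counts in blood (69.3% to 79%), 74.8% ± 2.61 in non-glandular stomach and 72.4% ± 2.74 in hippocampus. It was least used in pancreas, with 37.6% ± 3.13 (32.5% to 42%, n = 9 without the lane), followed by testis at 48.6% ± 4.24 (n = 4), ileum at 56.5% ± 4.6 (n = 9), jejunum at 57.2% ± 4.21 and liver at 62.5% ± 2.87. Pancreas and blood did not overlap. Their RNA quality did not overlap either, with a RIN of 4.9 to 6.8 in pancreas and 7.4 to 8.4 in blood. The labels of the pancreas libraries also name a re-extraction. The part of RNA quality and re-extraction in the difference was not tested. The share of all shifted ends of miR-142-5p was lower than in blood in 12 of 21 tissues with every sample (permutation tests, adjusted p under 0.05) and in 17 of 21 without the lane, and in 7 of 21 with rats as blocks; for pancreas the difference from blood was -36.8 percentage points (adjusted p = 0.000128 by exact permutation test, n = 9) without the lane.

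For miR-142-3p the form 3 bases downstream was most used in blood, at 52.7% ± 5.1 (46.9% to 63.6%), then in the ganglion pools at 48.9% and 50.2%, in pancreas at 44.1% ± 4.08, in liver at 38.6% ± 2.79 and in heart at 29.2% ± 2.63. Blood lay above every liver and every heart sample. Over all shifted ends, miR-142-3p was lower than blood in 13 of 14 tissues and pancreas was not called (70.7% against 69.2%, adjusted p = 0.432 by permutation test). Both arms of miR-142 thus had more of their shifted ends in blood than in most organs, and in pancreas the call was made for the 5p arm and not for the 3p arm.

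miR-146a-5p went the other way. Its ends differed from the RefSeq end in 8.36% ± 2.98 of counts in blood (4.91% to 13.9%), and in all 20 tissues tested this share was higher, from 14.0% ± 3.98 in kidney cortex to 24.2% ± 6.25 in liver and 31.6% ± 15.7 in uterus (exact permutation test in uterus, n = 5); it was higher in all 20 without the lane too. The form that begins 1 base upstream made up nearly all of it, at 8.15% ± 2.99 in blood and 23.8% ± 6.06 in liver, where no liver sample was below 17.2% and no blood sample above 13.6%. For miR-150-5p 3 of 21 tissues were higher than blood with the lane and 1 without it. Over the 4 miRNAs with enough counts 23 of 76 tests were higher than blood and 25 lower, and with rats as blocks 18 and 16 were. The 5′ ends of other miRNAs were not compared with blood, so these counts cannot be called particular to the members.

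**Figure D5:**
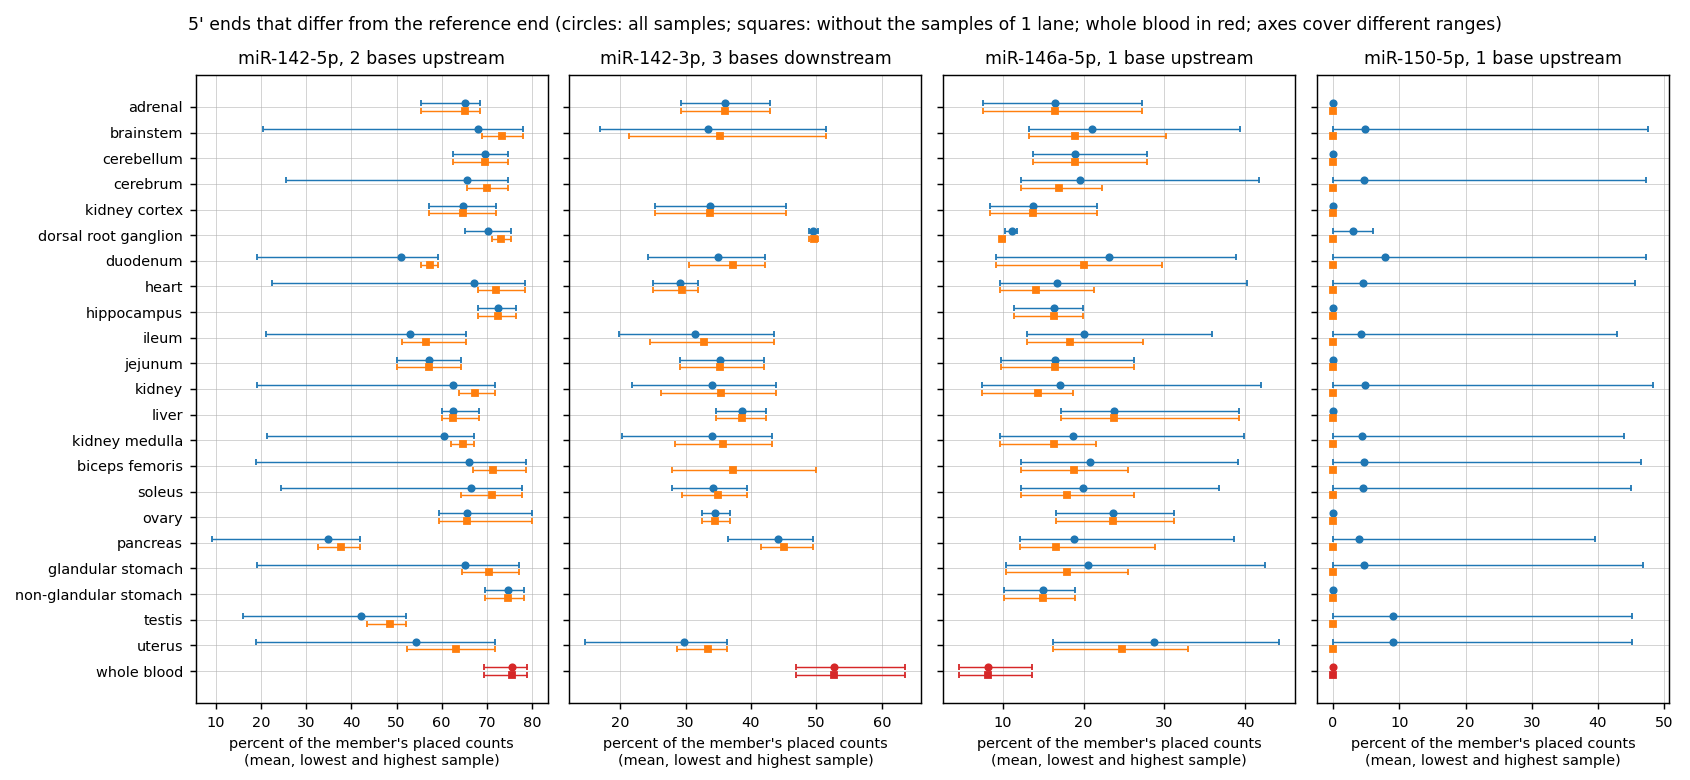
Share of placed counts that begin 2 bases upstream (miR-142-5p), 3 bases downstream (miR-142-3p) or 1 base upstream (miR-146a-5p, miR-150-5p) of the reference end (RefSeq, or for miR-150-5p its most counted isomiR), in percent, as mean with the lowest and highest sample, for all samples (circles) and without the samples of 1 lane (squares); blood is in red and the axes cover different ranges. Pancreas is lowest for miR-142-5p, blood is highest for miR-142-3p and lowest for miR-146a-5p, and the miR-150-5p shift disappears without the lane.

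The 6 miRNAs were also compared with each other over the 23 tissues, as a description of tissue means that share libraries and depths. miR-142-3p and miR-142-5p had a Spearman correlation of 0.973, miR-142-3p and miR-155-5p of 0.737 and miR-142-3p and miR-223-3p of 0.609. miR-150-5p ranged from -0.319 with miR-155-5p to 0.082 with miR-146a-5p; without the 4 brain regions it was at 0.0509 and 0.551 with these. Among 534 single names, the members left out, with a mean of at least 10 CPM in some tissue, those most like miR-142-3p were miR-15b-5p (0.887) and miR-18a-5p (0.86), and those most like miR-142-5p were miR-15b-5p (0.867) and miR-92a-3p (0.825). miR-223-3p was most like miR-27a-5p (0.755) and miR-28-3p (0.738), miR-150-5p most like miR-190a-5p (0.91) and miR-30e-3p (0.858), miR-155-5p most like miR-92a-1-5p (0.889) and miR-147 (0.887), and miR-146a-5p most like miR-20b-3p (0.805) and miR-28-3p (0.738).

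Other miRNAs known from leukocytes, a list of 11 names (both arms of miR-146b, miR-342 and miR-511, with miR-147, miR-181a-5p, miR-181b-5p, miR-652-3p and miR-21-5p), gave a less uniform picture. In blood 9 of 11 were called higher, where 38.4% of all names were, with a median of 2.01 against 0.40 over all names. With TMM 6 of the 11 were higher and 1 lower, where 246 of all 1593 names were higher and 393 lower. miR-146b-5p, which shares the seed of miR-146a-5p, was 4.08 log2 higher in blood (SE 0.158). In brain 6 of 11 were higher and 5 lower than in the non-neural tissues, against 26% and 35.6% of all names: miR-181a-5p (1.96), miR-181b-5p (1.88) and miR-342-3p (1.19), which neurons hold as well, were higher, and miR-147 (-4.57), miR-21-5p (-4.15) and miR-511-3p (-3.31) were lower. miR-146b-5p was higher in brain by 0.41 (SE 0.119) where miR-146a-5p was lower. In ileum against jejunum, where 3.95% of all names were called, 1 of 11 was, miR-146b-5p, lower by -0.99 (SE 0.299, adjusted p = 0.0305). The red cell list of 5 names was higher in blood for all 5, with a median of 9.62, and 4 of 5 were lower in brain. In ileum against jejunum the median of the red cell list was -0.01. Between the sexes in blood, where 8.46% of all names were called, 1 of the 11 leukocyte names was, as lower in females, with a median of -0.25, and the red cell list had a median of -0.82.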

How the data were processed

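Small RNA libraries (TruSeq) were sequenced on HiSeq instruments, single-end; the read length is given as different values in the labels and in the methods and is not used here. The authors trimmed adapters with cutadapt 1.4.1, discarded the shortest reads, aligned with miRDeep2 to miRBase hairpins, first of rat and then, for sequences not yet named, of mouse, human and C. elegans, and deposited raw counts per miRNA name and per isomiR for each run. A composite name marks reads that fit more than 1 hairpin. A composite with a predicted hairpin was kept when its other part was a mature member.

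From these deposited counts, 14 of 458 runs that repeat a lane were set aside and the 444 others were summed to 215 libraries and 207 tissue samples. CPM were computed on all counts of a sample. Names passing edgeR's expression filter (1593 across tissues, 1230 between sexes) went into 1 model per question, with tissue, or tissue and sex together, as the groups; it was run in edgeR 4.0.16 (R 4.3.3) with the quasi-likelihood test, library factors came from the upper quartile, and p-values were adjusted over all names by Benjamini-Hochberg. Single values were compared by two-sided permutation tests with scipy 1.17.1, exact where a group had under 10 samples and otherwise with 100000 resamples, adjusted within each family (neighbours, ratios to miR-451-5p, ratios to miR-142-3p, arm shares, 5′ ends). Levels were tested as log2(CPM + 1), and ratios had a pseudocount of 0.5 counts. The SE printed with a log2 difference of the edgeR fit is the size of that difference divided by the square root of its F statistic. It is not an error that the model reports. Shares needed 50 counts in every library of a tissue. A 5′ end was placed, within 6 bases, by matching an isomiR to the RefSeq mature sequence (miR-150-5p: to its most counted isomiR), letters being exact in the overlap apart from the last 3 bases. The scripts were tested on simulated data.

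The text names the 6 members with the most counts, their other arms, the fixed lists of leukocyte and red cell names, and for each member the 2 names with the highest Spearman correlation. The members and lists were chosen with earlier results of these data known. The same rats gave all tissues except the ganglion, so a rat can serve as a block; the median correlation of deviations was 0.022 between tissues of the same rat (1866 pairs) and -0.0048 between tissues of different rats (16806 pairs). The main fit has no block. The permutation tests rest on the spread between the samples of a tissue, 1 per rat. The main fit takes all tissue samples as independent, with 1 estimate of spread per name shared by all tissues. Its p-values therefore do not measure the spread of a contrast between rats. Counting intervals were not used because group spread was available. Alternatives were DESeq2 1.42.0, TMM, no filter on low counts, rats as blocks, all libraries, other sets of runs, red cell names removed, other minimum counts and each rat left out.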

Additional observations from a re-analysis of the deposited data

Results flagged for a closer look

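Of 132 groups of 4 to 10 samples, 11 held a sample far from the rest by Dixon's test, where chance alone flags about 1 in 20. The adrenal of rat 8, held to lie nearer to another tissue, was high for miR-142-3p (85.3 CPM, others 16.4 to 28.2), miR-142-5p (1205 CPM, others 183 to 360.4) and miR-146a-5p (536 CPM, others 103 to 240.1). The ileum of rat 2 was low for miR-142-3p (54.0 CPM, others 101 to 193) and miR-142-5p (445 CPM, others 1110 to 1898). The cerebrum of rat 9 was low for miR-142-3p (3.90 CPM, others 13.2 to 27.6), and that of rat 5 for miR-150-5p (920.1 CPM, others 1334 to 1861). miR-142-5p was low in the kidney cortex of rat 3 (382 CPM, others 551 to 821) and high in the biceps femoris of rat 2 (386 CPM, others 195 to 249). miR-146a-5p was high in the kidney of rat 6 (1109 CPM, others 267 to 560.5) and low in the liver of rat 4 (282 CPM, others 474 to 771).

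The sex difference of miR-223-3p in whole blood differed from the mean of the 18 other tissues by -1.42 log2 in edgeR's quasi-likelihood test. RIN separated the sexes in blood as well, and its part in the result cannot be told apart from that of sex.

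Counts on hairpin fragments, a signal outside the mature names, were few: 9 counts in 6 samples for the composite with the miR-142 hairpin, 8 counts in 7 samples for that with the miR-150 hairpin, and 7 counts in 7 samples for the miR-223 hairpin.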

How the results depend on the processing

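Of 376 alternative values of the counts of calls, 346 were within 1.5 times the main count and 30 were not. Of 696 alternatives for single members, 658 kept their call or stayed uncalled, 31 gained a call, 4 lost it and 3 reversed. A change of sign counted as reversed only when the main or the alternative value was called. Uncalled values could change sign, as for miR-142-3p in ileum against jejunum, at 0.14 in the main fit and as low as -0.01 with 1 rat or pool left out. The reversed values were miR-146a-5p in blood with TMM (-0.11) and miR-150-5p in brain with TMM (0.65) and DESeq2 (0.92). The cause was not tested. The alternatives without the runs of 1 lane without the ganglion and no block, and with 1 difference per rat were chosen after seeing the data.

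Members lower in ileum than in jejunum were 0 in the main fit, 2 with DESeq2, 2 with rats as blocks (replicate block) without the ganglion, and 1 each with TMM, all deposited runs, without 3 other libraries, without the ganglion and no block, and without the runs of 1 lane. Members higher in brain were 0, and 1 with DESeq2 and with TMM. Members higher in females were 0, and 1 with DESeq2 and with 1 flow cell; members lower were 1, 2 with TMM, with red cell names removed and without the runs of 1 lane, and 3 with all libraries. Neighbouring tissues called apart were 7, 11 with red cell names out of the totals and 0 in the rat block, where the few rats limit the smallest possible p. Ratios to miR-142-3p lower than blood were 0, and 2 in the rat block. Arm shares lower than blood were 27, 41 with a minimum of 10 counts (101 tests) and 12 with 200 (57 tests). Shifted 5′ ends lower than blood were 25, 11 with a minimum of 200 counts (57 tests) and 16 in the rat block. The block changed no other count by over 1.5 times. Within 1 tissue no block was possible between the sexes because each rat has 1 sex; for blood less the other tissues, 1 difference per rat (replicate block) gave -1.35 for miR-223-3p, still past the threshold, and -1.02 for miR-142-3p (exact permutation test, p = 0.0397, n = 5 and 5), which the fit did not call.

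With 1 rat or pool left out, calls over tissues were 58 to 63 higher and 44 to 48 lower, blood 6 to 6 higher, ileum 1 to 1 higher and 0 to 1 lower, brain 5 to 5 lower, females 0 to 1 higher and 1 to 5 lower, neighbours 5 to 9, ratios to miR-142-3p 80 to 87 higher and 0 to 1 lower, ratios to miR-451-5p 126 to 126, arm shares 26 to 30 higher and 27 to 29 lower, and 5′ ends 21 to 27 higher and 24 to 28 lower. The 5 lower calls between the sexes came without rat 8. Depth limits the rare arms, miR-155-5p in blood and the testis.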

Other observations

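At the 3′ end, miR-155-5p in whole blood carried an added A or AT in 26.5% of counts (107 of 404 over the 10 blood samples), against 5.12% to 15.5% in the other tissues; this was not tested.

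Of the 7 libraries left out of the comparisons, the hippocampus libraries of rats 2, 6 and 7 had 748, 1072 and 695 CPM of miR-142-5p and 238, 78.6 and 71.5 CPM of miR-223-3p, and the duodenum libraries of rats 2, 4, 7 and 11 had 196, 217, 51.4 and 167 CPM of miR-142-5p and 729, 918, 364 and 165 CPM of miR-150-5p, the last 2 inside the range of the kept duodenum samples (117 to 382).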
